A study of Rattus norvegicus with 8 samples.

Results

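The imprinted Dlk1-Dio3 locus of the rat carries one of the largest miRNA clusters of the genome, and 80 of its mature miRNAs were among the 719 on the array used here. They were chosen by name, from a list of the locus' hairpin numbers with any letter and any arm, and no measured value entered the choice. In C6 cells, 6 of the 80 (7.50%) were detected on at least 1 array, all of them 3p arms: miR-770-3p, miR-370-3p, miR-494-3p, miR-667-3p, miR-376b-3p and miR-487b-3p. The other 74 were detected on 0 arrays. No detected member differed between drug-treated and control cells past the adjusted threshold. miR-487b-3p was lowest on 1 control array, and the size of its difference under each drug turned on that array.

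C6 is an established rat glial tumour line, so all groups come from 1 line. The cells were kept in high-glucose DMEM with horse serum and FBS and were either left untreated (control) or given haloperidol at 2 µg/ml, risperidone at 4 µg/ml or clozapine at 25 µg/ml each day for 5 days. All 3 drugs are antipsychotics, haloperidol of the first generation and risperidone and clozapine of the second. The labels call the controls untreated and name no vehicle. Each group had 2 arrays, described as biological repeats, and total RNA (100 ng) was labelled with Cy3 and hybridised to 1-colour Agilent rat miRNA arrays. The replicate number was the row of the slide and the treatment group was its column, so slide column and drug cannot be told apart.

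At this locus the paternal chromosome expresses the protein genes Dlk1, Rtl1 and Dio3, while the maternal chromosome expresses long noncoding RNAs, among them Meg3, together with the miRNAs. A miRNA hairpin is cut into a 5p and a 3p arm, and the arm loaded into Argonaute finds its target mRNAs mainly through its seed, bases 2 to 8. The miRNAs of this locus are known from placenta, embryo and brain, where the stretch from miR-379 to miR-410 responds to neuronal activity, and many of them are low or silent in tumours.

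The mature sequences of the 6 detected members are shown because the results rest on them, with the seed in capitals. Sequences and positions are those of RefSeq on GRCr8, which held 78 of the 80 members (miR-127-5p and miR-136-5p were not matched). All 6 lie on the plus strand of chromosome 6, in the order given.
miR-770-3p: gUGGGCCUgacguggag
miR-370-3p: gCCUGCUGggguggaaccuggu
miR-494-3p: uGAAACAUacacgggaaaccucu
miR-667-3p: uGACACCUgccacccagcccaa
miR-376b-3p: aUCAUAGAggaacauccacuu
miR-487b-3p: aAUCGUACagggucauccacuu

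These 6 seeds differed from one another, and no other miRNA of the array with a RefSeq sequence shared any of them. The seeds shared within the locus belonged to undetected arms, such as GGUUGUC of miR-410-5p, miR-494-5p and miR-496-5p. The array miRNA nearest to miR-376b-3p was miR-376a-3p, at 3 edits, followed by miR-376c-3p and the detected miR-487b-3p at 5 each. Its family members miR-376a-3p and miR-376c-3p are shown with seeds in capitals because neither was detected on any array.
miR-376a-3p: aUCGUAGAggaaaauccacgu
miR-376c-3p: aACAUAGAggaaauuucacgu
Counted from the 5′ end, miR-376a-3p differed from miR-376b-3p by A4G, C13A and U20G, the first of them in the seed. miR-376c-3p differed by U2A in the seed and by C13A, A14U, C16U and U20G.

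The hairpins of miR-494 and miR-487b show where the detected arm lies. The 3p arm is in capitals, and the 5p arm is in the first part of each hairpin.
miR-494 hairpin: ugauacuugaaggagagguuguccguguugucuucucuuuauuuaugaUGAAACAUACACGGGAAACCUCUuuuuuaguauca
miR-487b hairpin: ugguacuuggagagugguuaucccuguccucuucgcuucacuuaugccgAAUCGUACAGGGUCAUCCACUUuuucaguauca
The hairpins are 83 and 82 bases long, with the 3p arm at bases 49 to 71 and 50 to 71.

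Across the array, 193 to 254 miRNAs were detected per array, fewest on risperidone replicate 2 (193) and clozapine replicate 2 (203). These 2 arrays also had the lowest 75th percentiles of signal among consistently bright probes, 387.6 and 689.0 against 796.3 to 1480 on the others. All levels here are scaled by that percentile. All 4 glial and glioma markers were detected on all 8 arrays, led by miR-21-5p, which is raised in gliomas. Of 5 neuronal markers, the defining miR-124-3p and miR-137-3p were detected on 0 arrays and 3 (miR-9a-5p, miR-128-3p and miR-129-5p) on all 8. None of 5 epithelial markers was detected. In RNA from a whole culture, fewer cells of a type and less RNA per cell cannot be told apart.

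Detection was read from the call deposited for each miRNA and array. The share of members detected anywhere (6 of 80, 7.50%) compares with 257 of the 639 other miRNAs (40.2%), and the share detected on all 8 arrays (3 of 80, 3.75%) with 182 of 639 (28.5%). A further 14 miRNAs of the locus that the list of names leaves out, such as miR-544-3p, miR-666-5p, miR-673-5p and miR-758-3p, were detected on 0 arrays. Between 3 and 6 members were detected per array: 5 and 4 in control replicates 1 and 2, 6 and 4 under both haloperidol and risperidone, and 5 and 3 under clozapine. In each of the 4 groups replicate 1 had more detected members than replicate 2. The same held for all miRNAs of the array, so this order was not particular to the members. Replicates 1 and 2 had 249 and 242 detected miRNAs in controls and 254 and 242 under haloperidol. They had 249 and 193 under risperidone and 233 and 203 under clozapine. With at least 1 probe required to be above background, the controls reversed, at 3 and 4 members. The drug groups kept the order, at 6 and 4, 4 and 3, and 4 and 3.

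The undetected members lay at or near background. Their 174 probes had a median signal of -5.51 to -2.31 on the 8 arrays, after the background subtraction of Feature Extraction, and none exceeded 5.07. The brightest of 7 negative-control probes lay at 3.59 to 5.25. miR-409a-3p was the only undetected member with all probes above the brightest negative control, on control replicate 2 alone. The other 73 had all probes above it on 0 arrays. Single probes of undetected members were above it on control replicates 1 and 2 (1 and 3 probes) and haloperidol replicates 1 and 2 (2 and 1). On the risperidone and clozapine arrays 0 were. Undetected members included miR-134-5p, which acts on dendritic spines through Limk1, and miR-379-5p and miR-410-3p, which bound the activity-responsive stretch.

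**Figure D1:**
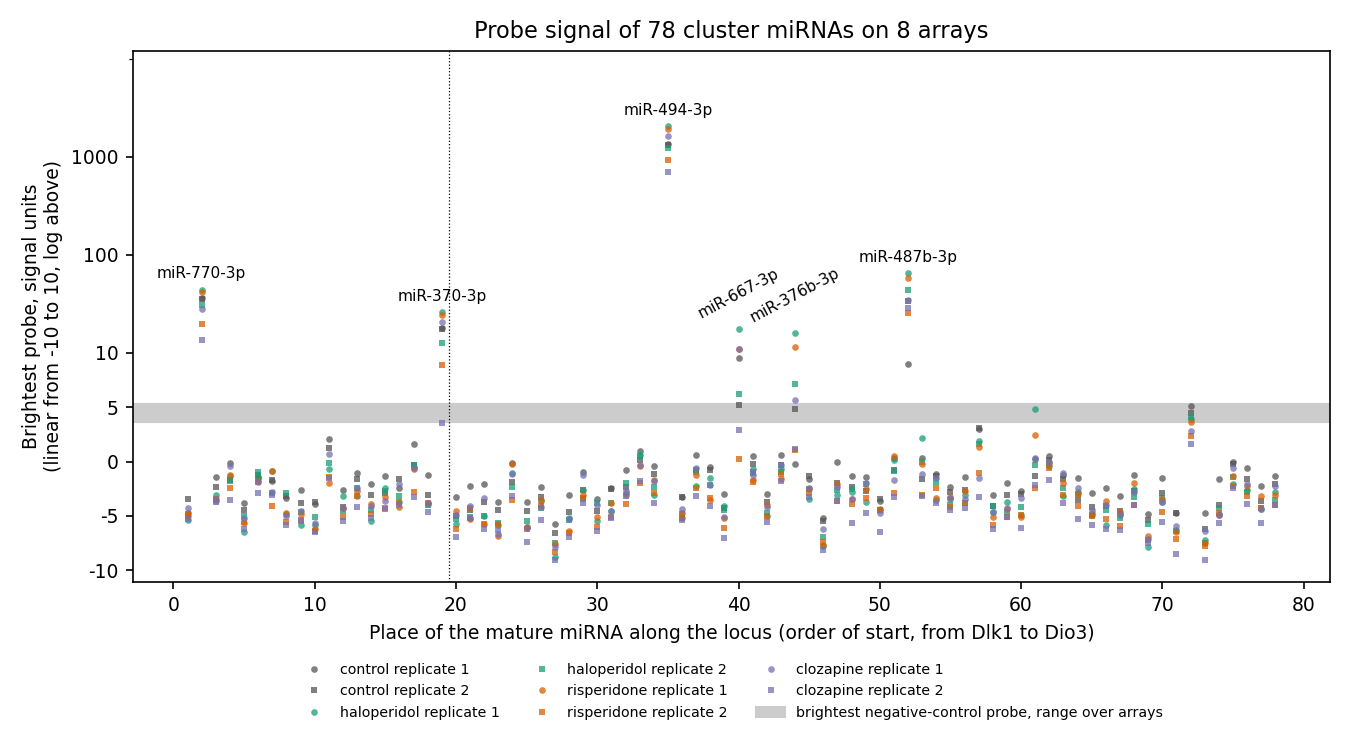
Signal of the brightest probe of each of 78 members with a RefSeq position, against the member's place in order along the locus. Each point is 1 array (circle, replicate 1; square, replicate 2), the grey band spans the brightest negative-control probes of the 8 arrays, and the dotted line parts the Meg3 side from the stretch from miR-379 to miR-410; the 6 named members stand above the band on at least 1 array, and heights of different miRNAs are not comparable since each probe has its own response.

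By place, 2 of 21 members on the Meg3 side were detected and 4 of 59 in the stretch from miR-379 to miR-410. miR-770-3p (chr6:134298129-134298145) is the second of the 78 ordered members and lies inside Meg3, as does its undetected partner arm miR-770-5p. miR-370-3p (chr6:134354538-134354559) is the 19th and the last of the Meg3 side. The 7 members inside the span of Rtl1, which include miR-127-3p, miR-431 and both arms of miR-433 and miR-434, were detected on 0 arrays. These miRNAs are transcribed opposite to Rtl1 and are known to cut its mRNA. In the other stretch, miR-494-3p (chr6:134550163-134550185), miR-667-3p (chr6:134555392-134555413), miR-376b-3p (chr6:134558913-134558933) and miR-487b-3p (chr6:134562939-134562960) took places 35, 40, 44 and 52. Between them lay undetected neighbours, among them miR-495 and both arms of miR-543 and miR-376c.

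All detected members were 3p arms. Of 37 members named 3p, 6 were detected (16.2%), and of 37 named 5p, 0 were, while 6 members carry no arm in their name and were not detected. Among the 639 miRNAs outside the list of names, 117 of 260 3p arms (45.0%) and 119 of 255 5p arms (46.7%) were detected. Both arms of a hairpin were on the array for 37 members' hairpins, and in none were both detected. An arm was detected in 6 of the members' hairpins. In the same set, among hairpins with both arms on the array and at least 1 of them detected, both were detected in 56 (39.2%) and only 1 in 87. These shares are descriptions of one cell line, without a test.

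**Figure D2:**
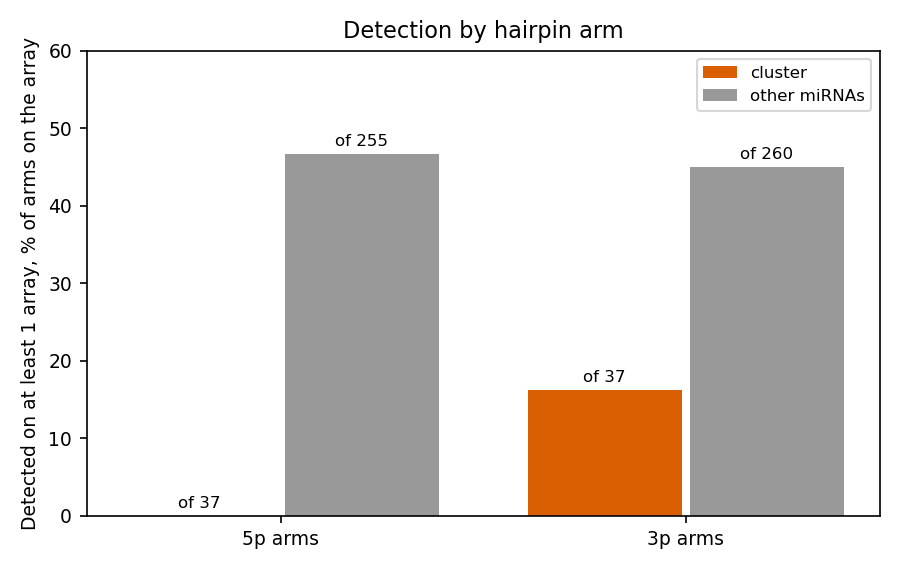
Share of 5p and 3p arms detected on at least 1 of 8 arrays, in percent, for members of the cluster (orange) and for other miRNAs of the array (grey), with the number of arms above each bar. The cluster's bars stand at 0% and 16.2%, the other miRNAs' at 46.7% and 45.0%.

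Base composition of the 6 detected members ranged from 38.1% GC (miR-376b-3p) to 70.6% (miR-770-3p), with a median of 54.5%. The 72 undetected members with a sequence had a median of 47.7%. Among miRNAs outside the list of names the medians of detected and undetected miRNAs were 47.4% and 47.8%.

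Levels are given first as a multiple or percent of the array's 75th percentile, replicate 1 before replicate 2, and then as log2 of the same ratio, so that a log2 level of 0 is that percentile. miR-494-3p, reported in other cells to repress the receptor gene Kit, was detected on all 8 arrays. Its level, in multiples of the 75th percentile, was 1.45 and 1.52 in the controls and 1.55 and 1.40 with haloperidol. Under risperidone it was 1.95 and 2.66, and under clozapine 2.27 and 1.13. Both risperidone arrays were above both controls, haloperidol spanned the controls, and the clozapine arrays fell on either side of them. Its 2 probes moved together over arrays, with a brighter-to-dimmer ratio of 8.25 to 9.58.

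miR-770-3p, encoded inside Meg3, was detected on all 8 arrays at lower signal. Its level was 4.77% and 4.96% in the controls and 4.02% and 4.09% under haloperidol. Under risperidone it was 5.14% and 6.34%, and under clozapine 4.65% and 1.97%. The control arrays lay close together, above both haloperidol and both clozapine arrays and below both risperidone arrays. On clozapine replicate 2 the dimmer of its 2 probes gave a signal of 0.0928, that is, background, and the brighter probe 13.5.

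miR-370-3p, known to act on the fatty acid oxidation enzyme Cpt1a in liver, was detected on 7 arrays. The 2 controls read 3.12% and 3.44% and the haloperidol arrays 3.33% and 2.43%. Risperidone arrays read 4.25% and 3.64%, and clozapine arrays 4.69% and 0.749%. The last of these, clozapine replicate 2, was the array without detection and entered the fit at the floor of -6.22. The highest and the lowest of the 8 values both came from clozapine.

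miR-487b-3p, studied as a restrainer of growth in neuroblastoma, was called detected on all 8 arrays. The controls were at 1.32% and 4.99%. The drug arrays were at 6.24% and 6.70% for haloperidol, 7.49% and 9.91% for risperidone, and 5.88% and 5.74% for clozapine. After scaling, all 6 drug arrays were above both controls. Before it, control replicate 2 had a summed signal of 47.7, above risperidone replicate 2 (38.4) and clozapine replicates 1 (46.8) and 2 (39.5). Control replicate 1 stood far below all others and entered the fit at the floor. Both of its probes were low there, at 8.99 ± 2.27 and 4.76 ± 2.03 signal units (SD over 9 and 10 spots), with 0 spots well above background. On the other 7 arrays the brighter probe gave 25.3 to 64.9 and the dimmer one 10.9 to 27.4.

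**Figure D3:**
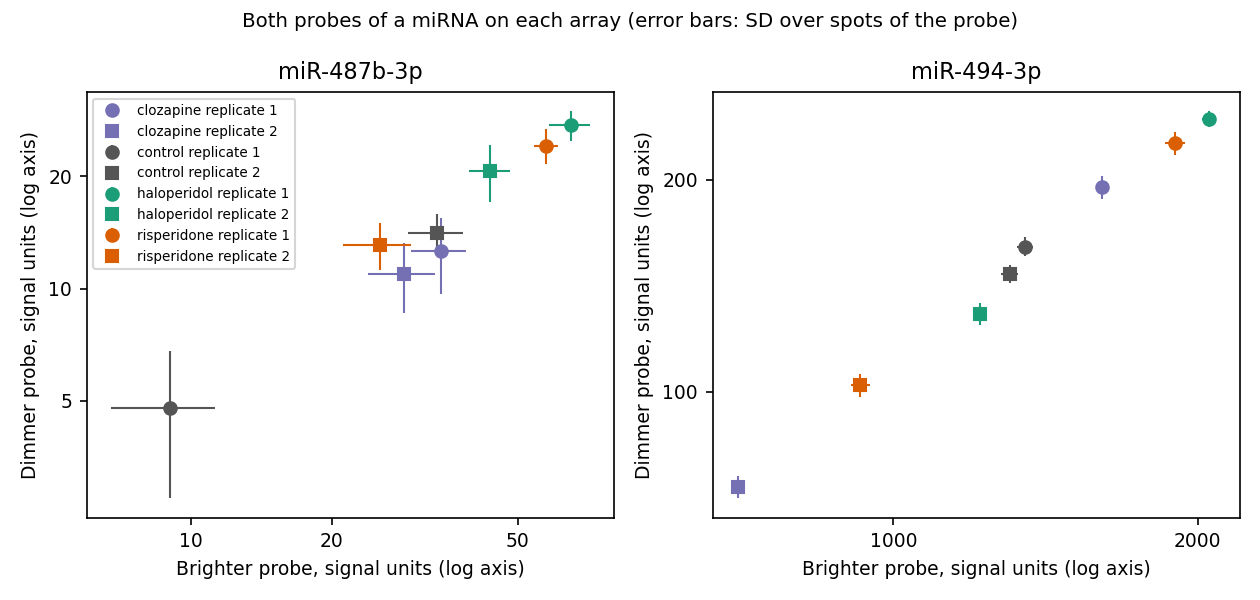
Signal of the dimmer against the brighter probe of miR-487b-3p (left) and miR-494-3p (right) on each of 8 arrays, on log axes, with error bars for the SD over the spots of a probe. The 2 probes of each miRNA order the arrays alike or nearly so, and control replicate 1 lies apart for miR-487b-3p (8.99 and 4.76) but among the other arrays for miR-494-3p.

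miR-667-3p was detected on the 4 replicate 1 arrays and on 0 of the 4 replicate 2 arrays. Its level was 1.66% in the control, 2.34% with haloperidol, 1.94% with risperidone and 2.32% with clozapine in replicate 1, against 1.01%, 1.21%, -0.177% and 0.643% in replicate 2. In each group replicate 1 was the higher array. By the stricter rule of at least 1 probe above background in 50% or more of its spots it was detected on 1 array, haloperidol replicate 1. It was detected on both arrays of 0 groups and so was not tested.

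miR-376b-3p, of a family reported to repress the autophagy genes Becn1 and Atg4c, was detected on 2 arrays, haloperidol replicate 1 (1.65%) and risperidone replicate 1 (1.56%). The controls read -0.229% and 0.666%, haloperidol replicate 2 read 1.09%, risperidone replicate 2 read 0.0775%, and clozapine read 1.17% and -0.0621%. The arrays without detection were all at the floor and have no order. It too was not tested, and no fold is given since each group had at least 1 array at the floor.

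**Figure D4:**
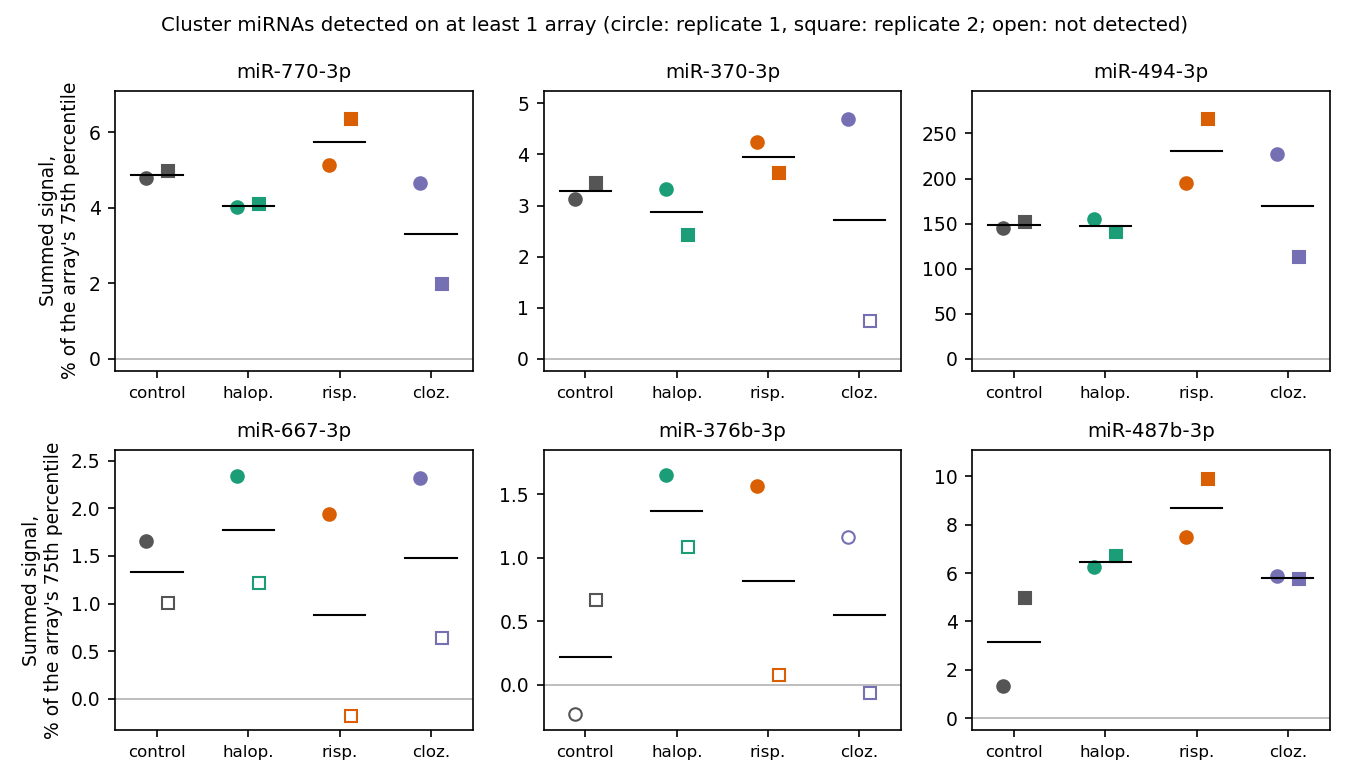
Level of each of the 6 detected members on each array, as a percent of the array's 75th percentile (circle, replicate 1; square, replicate 2; filled, detected; open, not detected), with the group mean as a line; each panel has its own scale. miR-487b-3p is lowest on control replicate 1 (1.32%), miR-667-3p is detected on circles alone, and miR-370-3p and miR-770-3p are lowest on clozapine replicate 2.

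Drug and control cells were compared in a limma fit over the 243 miRNAs that both arrays of some group had detected, with Benjamini-Hochberg adjustment over all of them. Of the 80 members 4 entered it. The other 76 did not, so the 4 do not speak for the locus, and a member that was detected only under a drug would have entered through that group. The 3 drug comparisons share both control arrays, so they are not independent of each other. The number of arrays limits the precision.

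Haloperidol against control asks which members differ under a first-generation antipsychotic. limma called 0 of the 4 members and 0 of 243 miRNAs (0.00%), the smallest adjusted p being 0.581. Before adjustment 16 miRNAs (6.58%) were under 0.05, none of them a member. This count was 1 with no scaling between arrays and 43 with the replicate number added to the fit. miR-487b-3p had a log2 level of -3.95 ± 0.07 against -5.27 ± 1.34 in controls (SD, n = 2 each), a difference of 1.32 (SE 0.60, 95% interval -0.18 to 2.82, limma adjusted p = 0.581). Within replicates 1 and 2 the difference was 2.22 and 0.43. No spot of miR-487b-3p was well above background on control replicate 1. Each replicate 1 difference of this miRNA, under any drug, is therefore taken against a signal near background, and its size is uncertain. The control replicate 1 value (0.0132) lay just under the floor (0.0134), and with a lower floor the fitted haloperidol difference was 1.33. The other 3 members differed by -0.01 (miR-494-3p, SE 0.36), -0.21 (miR-370-3p, SE 0.58) and -0.26 (miR-770-3p, SE 0.40). The arrays of 1 member were all higher than the controls, where 11.5% of tested miRNAs were, and those of 1 member (miR-770-3p) all lower, where 32.1% were. The median of the 4 differences was -0.11, near the -0.15 of all 243.

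Risperidone against control puts the same question for a second-generation drug. limma called 0 of the 4 members and 0 of 243 miRNAs (0.00%), with 0.243 as the smallest adjusted p. Before adjustment 21 miRNAs (8.64%) were under 0.05, and miR-487b-3p was the 1 member among these (unadjusted p = 0.0307 in the limma fit). The count was 6 with normexp background correction and 60 with the replicate number added to the fit. The log2 level of miR-487b-3p was -3.54 ± 0.29 against -5.27 ± 1.34, a difference of 1.74 (SE 0.60, 95% interval 0.23 to 3.24, limma adjusted p = 0.454). It was 2.48 within replicate 1 and 0.99 within replicate 2. miR-494-3p was at 1.19 ± 0.32 against 0.57 ± 0.05 (SD, n = 2), a difference of 0.62 (SE 0.36, 95% interval -0.28 to 1.51, limma adjusted p = 0.511), with 0.43 and 0.81 within replicates. miR-370-3p and miR-770-3p differed by 0.26 (SE 0.58) and 0.23 (SE 0.40). For all 4 members both risperidone arrays lay above both controls, where 7.00% of the 243 tested miRNAs did so and 32.9% lay below. For miR-370-3p this rests on a dim value, since on risperidone replicate 2 neither probe had a spot above background, and its dimmer probe was below the control within replicate 2 (-0.27). The median of the 4 was 0.44, against -0.15 over all 243 miRNAs.

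Signs relative to 0 depended on the scaling. With no scaling between arrays the risperidone differences were -0.35 for miR-370-3p, -0.39 for miR-770-3p and near 0 (-0.00048) for miR-494-3p, and 1 of the 4 stayed above 0. All miRNAs moved with them: the median over all tested was -0.64 without scaling. The members' median exceeded it by 0.47, compared with 0.59 in the scaled values and 0.19 with normexp background correction. With the deposited gene-level signal miR-370-3p was at -0.12. Risperidone replicate 2 had the lowest 75th percentile of the 8 arrays, and without it all 4 members remained above 0, with a median of 0.38.

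Clozapine against control was the third comparison. limma called 0 of the 4 members and 0 of 243 miRNAs (0.00%), and the smallest adjusted p was 0.270. Before adjustment 36 miRNAs (14.8%) were under 0.05, none of them a member. This count was 6 with no scaling between arrays and 66 with the replicate number added to the fit. miR-487b-3p was at -4.11 ± 0.02 against -5.27 ± 1.34, a difference of 1.17 (SE 0.60, 95% interval -0.34 to 2.67, limma adjusted p = 0.502), with 2.13 within replicate 1 and 0.20 within replicate 2. miR-770-3p was at -5.05 ± 0.87 against -4.36 ± 0.04, a difference of -0.68 (SE 0.40, 95% interval -1.69 to 0.32, limma adjusted p = 0.558). That value came from replicate 2, at -1.33, where replicate 1 gave -0.04. miR-494-3p and miR-370-3p differed by 0.11 (SE 0.36) and -0.39 (SE 0.58). Both changed sign between replicates, from 0.64 to -0.43 and from 0.59 to -1.36. The -1.36 of miR-370-3p is set by the floor, since it was not detected on clozapine replicate 2. With a lower floor its fitted difference was -0.81. The arrays of 1 member were all above the controls, where 5.35% of tested miRNAs were, and those of 1 member all below, where 33.7% were. The median of the 4 was -0.14, near the -0.17 of all 243. It was -0.84 without clozapine replicate 1 and 0.56 without clozapine replicate 2.

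**Figure D5:**
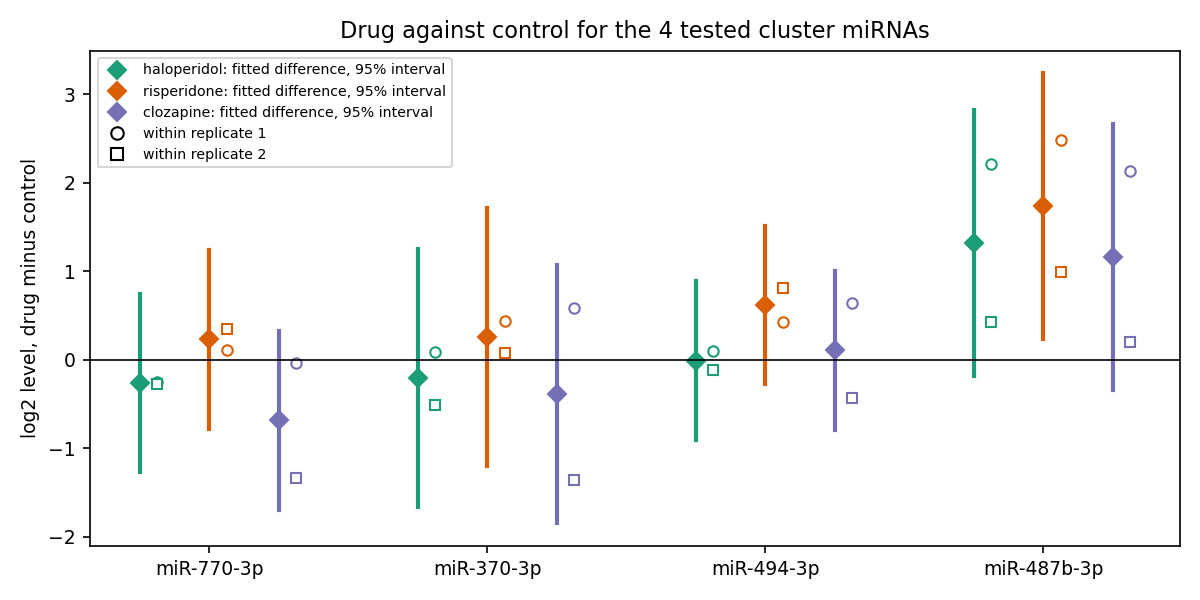
Difference in log2 level, drug minus control, for the 4 tested members: diamonds are the fitted differences with 95% intervals, open circles and squares the differences within replicates 1 and 2. Of the 12 intervals, that of miR-487b-3p under risperidone (0.23 to 3.24) alone leaves out 0, before any adjustment, and for miR-487b-3p the replicate 1 differences are taken against a control value at the floor.

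The difference of miR-487b-3p turned on which control array was kept. Without control replicate 1 it was 0.37, 0.79 and 0.22 for haloperidol, risperidone and clozapine. Without control replicate 2 it was 2.27, 2.68 and 2.11. The only control value in that second fit comes from the array without a spot well above background for this miRNA. In both of these fits the lone control array is assumed to vary like the other groups. For all 3 drugs the difference kept its direction under each of the alternatives run, but its size varied. Each alternative other than the fit without control replicate 1 kept that low array among the controls. With normexp background correction the difference was 0.16, 0.80 and 0.93 for haloperidol, risperidone and clozapine. The median of all tested miRNAs was then -0.11, 0.37 and 0.55 in the same order. Across the 4 groups together limma's F test called 0 of 243 miRNAs (0.00%), the smallest adjusted p being 0.677 and 8 miRNAs (3.29%) being under 0.05 before adjustment. It gave miR-487b-3p an adjusted p of 0.799.

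Marker miRNAs of other cell types were summed per list and array. The summed level of the 5 neuronal markers, relative to the 75th percentile, was 1.63 to 1.74 in controls, 1.48 to 1.57 with haloperidol, 1.47 to 1.52 with risperidone and 1.35 to 1.44 with clozapine, with miR-124-3p and miR-137-3p undetected throughout. The 4 markers of smooth muscle and mesenchyme, of which 3 were detected on at least 1 array and miR-199a-3p made up most of the sum, reached 2.16 to 2.61 in controls and 1.78 to 2.09, 1.82 to 2.08 and 1.84 to 2.06 with the drugs in the same order. Both lists were thus lower on all drug arrays than on the controls, as were 32.1% to 33.7% of single tested miRNAs under each drug. The sums of the glial, leukocyte, endothelial and erythrocyte lists overlapped the controls under each drug. In the skeletal and heart muscle list 1 of 4 markers was detected. Its sum was 0.0332 to 0.0756 in controls and lower, at 0 to 0.0244, with risperidone. With haloperidol and clozapine it overlapped the controls. The part of these cell types in the members' values was not tested.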

How the data were processed

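MiRNAs were measured on 8 arrays, 2 for each of 4 groups. The deposited spot files hold intensity values, background-subtracted by Agilent Feature Extraction 10.7.3.1 per the file headers, linear and not scaled between arrays; the deposited flags of unit other (0 or 1) mark outlier spots, spots well above background and detected miRNAs. The members, lists and tests were chosen with earlier results of these data known. Spots were averaged per probe without outliers and summed per miRNA. To scale them, the 75th percentile of each array was taken over 291 probes above background (in over 50% of spots) on every array. Scaled sums were floored at the 5th percentile of detected values (0.0134, log2 -6.22) and taken to log2. Group means were fitted with limma 3.58.1 (R 4.3.3; two-sided; 4 residual degrees of freedom; threshold 0.05), checked on simulated data. The floor hides spread, so the SE of a miRNA at the floor may be too low. P-values measure the spread between the repeats and their arrays. An exact permutation of 2 against 2 arrays cannot reach the threshold, so none was used. Every member detected on at least 1 array is named with its values, and undetected members are counted. Alternatives changed the scaling, background correction, probe summary, floor, detection rule and filter, the replicate block and the arrays. Normexp (offset 50) used spot medians in place of means.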

Additional observations from a re-analysis of the deposited data

How the results depend on the processing

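Leaving out 1 array at a time, limma called 0 to 5 miRNAs under haloperidol, 0 to 6 under risperidone and 0 to 7 under clozapine, with 0 to 1 members, and each count above 0 came without control replicate 2. With the replicate block 1 miRNA was called for risperidone and 2 for clozapine, with 0 members, and 43, 60 and 66 miRNAs were under 0.05 before adjustment (haloperidol, risperidone, clozapine). Same-numbered arrays deviated together (correlation of replicate differences across 243 miRNAs 0.16 to 0.71 over the 6 pairs of groups), but the labels give a number only. No alternative of scaling, background, summary, floor or filter gave a called member. Of 201 member values, 182 kept direction and side of the threshold, 3 (miR-487b-3p without control replicate 2) passed it, and 16 changed sign, all from differences that did not pass. For haloperidol, miR-494-3p was at 0.11 with the percentile over all probes, 2.27e-05 with quantile normalization and 0.25 unscaled, and between -0.081 and 0.065 with 1 array left out (0.025 without control replicate 2). miR-370-3p was at 0.050 unscaled and between -0.44 and 0.021 with 1 array left out. For risperidone, unscaled values were -0.35 (miR-370-3p), -0.00048 (miR-494-3p) and -0.39 (miR-770-3p), and miR-370-3p was at -0.12 with the gene-level signal. For clozapine, miR-494-3p was at -0.32 unscaled and between -0.40 and 0.61 with 1 array left out, and miR-370-3p between -1.29 and 0.52. Normexp gave 0.76 for miR-370-3p and 0.66 for miR-770-3p, where the median of all tested miRNAs was 0.55. The causes were not tested. Counting a member as detected where at least 1 probe was above background gave 3 members on control replicate 1 in place of 5, and 6 on at least 1 array as before. By that rule miR-494-3p and miR-770-3p were detected on all 8 arrays, miR-487b-3p on 7, miR-370-3p on 6, and miR-376b-3p and miR-667-3p on 1 each, so signal over background limits the last 4.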
